A study of Mus musculus with 10 samples.

Results

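The T-box genes of the heart and epicardium *Tbx18*, *Tbx20*, *Tbx5*, *Tbx2*, *Tbx3* and *Tbx1* were examined in bulk ATAC-seq peak lists of the mouse epicardium and of epicardium-derived cells (EPDC). The members were all peak summits inside these 6 genes or within 50 kb of them on mm10, and a summit within 1 kb of a gene's 5′ end was taken as lying in its promoter. This gave 935 of the 1071660 summits of 9 libraries, and 160 of 184764 non-overlapping regions, each a summit with 250 bp on either side. *Tbx18* held 24 regions, *Tbx20* 29, *Tbx5* 34, *Tbx2* 23, *Tbx3* 23 and *Tbx1* 27. Each group had 3 libraries: epicardium at E11.5, epicardium at E17.5, and EPDC, where the stage was E12.5 for 1 library and E13.5 for 2. All mice carried Rosa26tdTomato and Wt1CreERT2/+ on a C57BL/6J background and had received tamoxifen at E9.5, so every cell analysed descends from cells in which the *Wt1* promoter drove the recombinase. Epicardium was sorted as CD31-tdTomato+PDPN+ cells and EPDC as CD31-tdTomato+PDPN- cells. The labels give 6 pooled hearts per E11.5 sample, 4 per E17.5 sample and 4 to 13 per E13.5 EPDC sample, with 40000 to 50000 sorted cells, so a library is an average over littermates and the p-values below measure the spread between pools. In EPDC this spread also holds the difference between E12.5 and E13.5. The E13.5 EPDC sample 2 was sequenced in technical replicates that share 1 list and count as 1 library.

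T-box factors are transcription factors that bind a short DNA element, the T-box element, through a conserved domain of the same name. TBX5 and TBX20 act mainly as activators in the developing heart, TBX2 and TBX3 as repressors that keep the atrioventricular canal and the conduction system from taking on a working myocardial programme, and TBX1 acts in the pharyngeal mesoderm and second heart field. TBX18 marks the proepicardium, the epicardium and the sinus horns. ATAC-seq reads open chromatin with the Tn5 transposase, and a peak near these genes may be a promoter or an enhancer of the gene or of a neighbour.

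The value given for a region is its score, the −log10 p of the summit divided by the sum of −log10 p over all summits of the library, times 1000000. A region with no summit in a library is given 0, which says that no peak was called and not that the chromatin was closed. The lowest score listed in a library ranged from 0.237 to 0.95, so scores below 1 could be missed in some libraries and called in others. The lists held 94909 to 142743 summits on the assembled chromosomes, and the genome background, a measure of depth, was 2.07 to 4.26 fragments per position in 8 libraries and 10.9 in E13.5 EPDC sample 2. The 3 EPDC lists also held 252 to 268 summits on other sequences, and single summits of −log10 p up to 70107, where the epicardial lists ended at 891. Differences between EPDC and epicardium therefore cannot be told apart from differences in how these lists were made. No EPDC library was of the same stage as an epicardial one, so cell type and stage cannot be told apart either. Groups were compared on log2(score + 1) with limma across all regions, or across all gene loci, and a call is a Benjamini-Hochberg adjusted p under 0.05. The 3 comparisons share libraries and are not independent of each other.

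Promoters of epicardial markers were open in the sorted cells. A summit was present at 8 of 10 epicardial promoters in each E11.5 library, at 10 of 10 in each E17.5 library and at 7 to 8 in the EPDC libraries, with summed scores of 189 to 218, 233 to 254 and 111 to 146. The markers did not move alike: the uroplakin gene *Upk3b* gave 44.5 to 52.7 at E11.5 and 1.53 to 9.19 in EPDC, while *Wt1* gave 36.6 to 37.2 and 28.7 to 53.3 and *Tcf21* 26 to 30.3 and 24.3 to 31.1. Mesenchymal promoters were called at 8 to 10 of 10 in every library, with summed scores of 131 to 155, 133 to 159 and 156 to 174. Among them *Postn*, a matricellular protein of fibroblasts, was at 0 at E11.5 and 8.43 to 12.3 in EPDC, and *Dcn*, a small proteoglycan, went the other way, from 33.1 to 37 at E11.5 and from 18.5 to 21.3 in EPDC. Of 10 cardiomyocyte promoters, 6 to 8 had a summit at E11.5, 6 at E17.5 and 4 in EPDC, with summed scores of 62.4 to 67.5, 42.1 to 51.1 and 48.5 to 59.4. The cardiomyocyte promoters of *Myh6* and *Myl2* were at 0 in all 9 libraries and those of *Myh7* and *Myl7* at 0 in EPDC, while *Tnnt2*, *Actn2*, *Ryr2* and *Nkx2-5* had a summit in every library. Endothelial promoters were called at 5 or 6 of 10, with *Pecam1* and *Cdh5* at 0 throughout and summed scores of 46.4 to 52.3, 60.5 to 64.2 and 60.3 to 67.4. Blood promoters were called at 1 or 2 of 10, with *Ptprc* at 0 throughout and summed scores of 10.2 to 16.8, 16.9 to 20.9 and 4.41 to 9.04.

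The summed score of each locus, over the gene and 50 kb on each side, was called at 1 of 6 genes from E11.5 to E17.5, at 1 between EPDC and E11.5 and at 3 between EPDC and E17.5. *Tbx5* lost accessibility between E11.5 and E17.5, *Tbx20* was higher in EPDC than in epicardium of either stage, and the *Tbx5* and *Tbx3* loci were higher in EPDC than at E17.5. No locus call was made for *Tbx18*, *Tbx2* or *Tbx1*. Among all 19861 loci tested, 30.8% rose and 16.8% fell from E11.5 to E17.5, 13.7% were higher and 23.7% lower in EPDC than at E11.5, and 16.6% were higher and 37.1% lower in EPDC than at E17.5. The median difference over all loci was 0.12, -0.05 and -0.14 on the log2 scale in these comparisons, and differences are given without subtracting it. The split of calls over all loci moved with the scale: 64.7% of the E17.5 calls were rises with the score, 81.4% with fragments over genome background and 18.8% with log2 fold enrichment. In EPDC against E11.5, 36.7% of the calls were rises with the score, 18.7% with rank percentiles and 59% when the extreme summits were left out of the library sum. In EPDC against E17.5 the share was 31% with the score, 12.6% with fragments over genome background and 58.4% with log2 fold enrichment.

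The *Tbx5* locus gave 76.1, 76.3 and 76.1 at E11.5, 39.4, 46.5 and 39.1 at E17.5 and 61.9, 61.8 and 65.3 in EPDC. The 3 groups did not overlap. The E17.5 mean was 0.547 times the E11.5 mean, a log2 difference of -0.86 ± 0.11 (SE, n = 3 per group, limma adjusted p = 9.18e-05), and EPDC lay 0.59 ± 0.11 above E17.5 (limma adjusted p = 0.000654). The fall to E17.5 missed the threshold with log2 fold enrichment (-0.52, limma adjusted p = 0.0521) and with the number of summits (-0.31, limma adjusted p = 0.0553), and the difference of EPDC from E11.5 missed it too (-0.27, limma adjusted p = 0.0669). That difference was called with fragments over genome background (-0.60, limma adjusted p = 0.0257), with no trend (limma adjusted p = 0.0291) and without the strongest summit (-0.32, limma adjusted p = 0.0371), and was 0.04 with equal numbers of summits. The call between EPDC and E17.5 was lost with log2 fold enrichment (0.27, limma adjusted p = 0.286), the number of summits (0.05, limma adjusted p = 0.753), rank percentiles (limma adjusted p = 0.0933) and fragments over genome background (0.07, limma adjusted p = 0.747). The summed cardiomyocyte marker score given above was also highest at E11.5, while E17.5 and EPDC overlapped. Of its promoters, *Tnnt2* ranged from 15.7 to 17.6 at E11.5, from 4.69 to 7.22 at E17.5 and from 11.4 to 13.1 in EPDC, and *Actn2* from 24.2 to 26.3, from 13 to 14.9 and from 23 to 25.8, so both were lowest at E17.5 like the *Tbx5* locus. The other promoters did not share this pattern. *Myl7* (6.02 to 9.49) and *Myh7* (2.84 to 5.69) were highest at E17.5, and *Ryr2* and *Nkx2-5* overlapped between the groups. The part of such cells in the *Tbx5* values was not tested.

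The *Tbx20* locus gave 64, 67.6 and 68.3 at E11.5, 82.8, 70.4 and 65.9 at E17.5 and 115.2, 113.2 and 108.9 in EPDC, where E12.5 was the highest. The EPDC libraries lay above all 6 epicardial ones. EPDC was 1.69 times E11.5 (log2 difference 0.75 ± 0.10, limma adjusted p = 0.000144) and 1.54 times E17.5 (0.62 ± 0.10, limma adjusted p = 0.000304). Both calls held under all 23 alternatives tried, and without the strongest summit of the locus, its promoter, the differences were 0.70 and 1.24. The difference of E17.5 from E11.5 was 0.12 (limma adjusted p = 0.334) and turned to a called -0.55 (limma adjusted p = 0.0294) without that summit.

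The *Tbx3* locus gave 97.5, 75 and 87.6 at E11.5, 70, 64.1 and 80.9 at E17.5 and 83.8, 100.3 and 94.3 in EPDC. E17.5 and EPDC each overlapped E11.5, while every EPDC library lay above every E17.5 one, by 0.37 ± 0.13 on the log2 scale (limma adjusted p = 0.0253). This call was lost under 9 of 23 alternatives, 4 of them leaving out a single library (E17.5 sample 1 or 2, or E13.5 EPDC sample 1 or 2), and without the strongest summit the difference was 0.13 (limma adjusted p = 0.623). The fall from E11.5 to E17.5 was not called (-0.27, limma adjusted p = 0.095), but it was with log2 fold enrichment, rank percentiles, the number of summits, without the strongest summit and without E11.5 sample 2 (-0.37, limma adjusted p = 0.0477).

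The other 3 loci had no call in any comparison with the score. *Tbx18* ranged from 98.3 to 122.9 at E11.5, from 87.8 to 105.2 at E17.5 and from 91.8 to 103.1 in EPDC, with limma adjusted p of 0.3, 0.262 and 0.898 in the comparisons. *Tbx2* ranged from 114.7 to 129.3, from 130.7 to 145.9 and from 106.4 to 134, and *Tbx1* from 94.1 to 99.6, from 86.4 to 92.7 and from 97 to 101.8. At both, E17.5 did not overlap E11.5, higher at *Tbx2* and lower at *Tbx1*, by less than the test required (limma adjusted p = 0.111 and 0.258). The *Tbx2* window also holds *Tbx4*, *Bcas3* and *Gm11444*, and with the *Tbx4* side left out the E17.5 rise at *Tbx2* was 0.27 (limma adjusted p = 0.0392) against 0.20 for the whole window, and EPDC differed from E17.5 by -0.28 (limma adjusted p = 0.0284) against -0.22 (limma adjusted p = 0.0684). Without E13.5 EPDC sample 1 the latter was -0.30 (limma adjusted p = 0.0269). With fragments over genome background, where the median of all loci was -0.57, EPDC was called lower than E17.5 at *Tbx18* (-0.47, limma adjusted p = 0.0105) and *Tbx2* (-0.53, limma adjusted p = 0.014). *Tbx1* was called higher in EPDC than at E17.5 with quantile normalization (0.27, limma adjusted p = 0.0193), when extreme summits were left out of the library sum (0.26, limma adjusted p = 0.0373) and without its strongest summit (0.28, limma adjusted p = 0.00664), and in the last case also lower at E17.5 than at E11.5 (-0.29, limma adjusted p = 0.0094). *Tbx2* without its strongest summit was lower in EPDC than at E17.5 (-0.36, limma adjusted p = 0.0129), and with fragments over genome background it was higher at E17.5 than at E11.5 (0.45, limma adjusted p = 0.0414), beside a median of 0.37 over all loci. The *Tbx1* window holds *Gnb1l*, *Gp1bb*, *Sept5* and *Gm49601*, so its regions cannot be assigned to *Tbx1* by position alone. Per 100 kb of window, the mean over libraries was highest at *Tbx2* (116.5 score units), followed by *Tbx1* (86.7), *Tbx18* (79), *Tbx3* (73.4), *Tbx20* (53.8) and *Tbx5* (39.5).

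**Figure D1:**
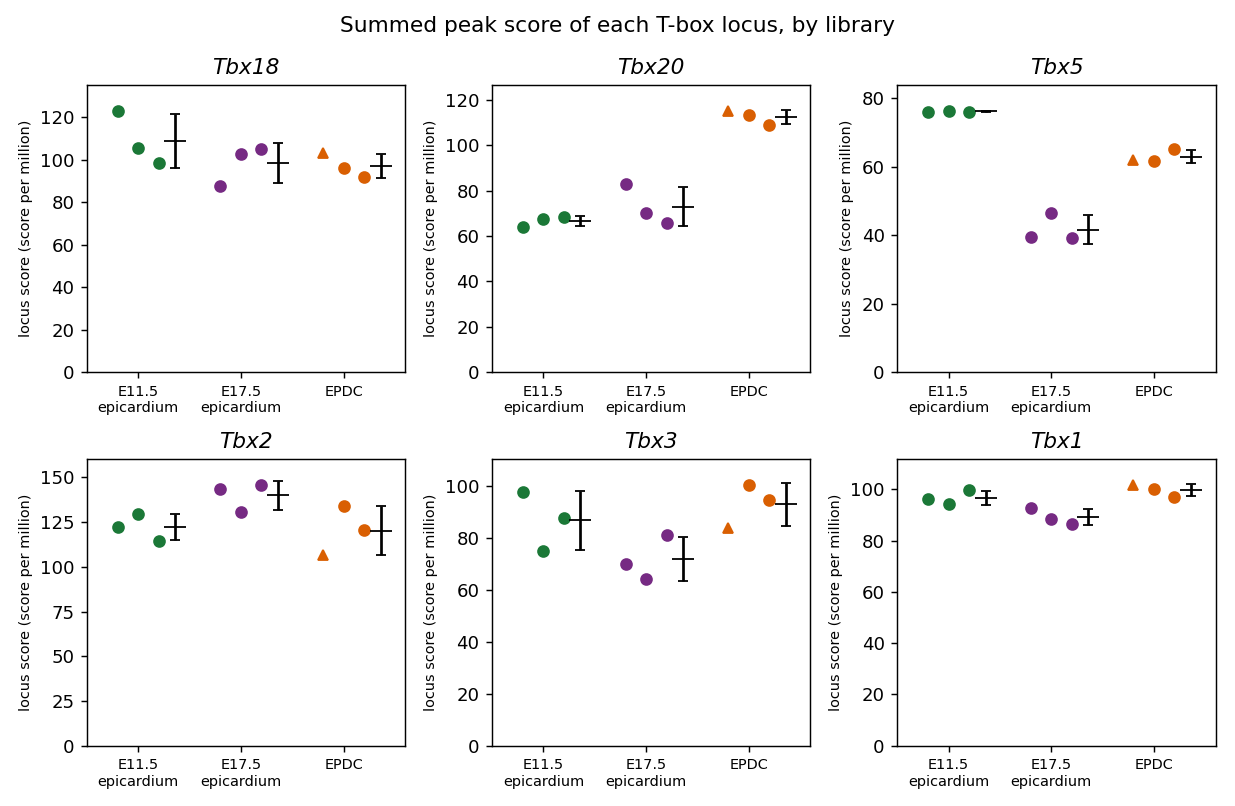
Locus scores, the sum of scores over each gene and 50 kb on each side, for each of the 9 libraries on a linear axis from 0, with circles for libraries, triangles for the E12.5 EPDC library and bars for the mean ± SD of 3. The *Tbx5* points fall from about 76.1 at E11.5 to 39.1 to 46.5 at E17.5, and the 3 *Tbx20* EPDC points, 108.9 to 115.2, lie above the other 6.

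Of the 160 regions, 126 had a summit in at least 2 libraries and were tested, and 34 had a summit in 1 library. From E11.5 to E17.5, 10 of the 126 rose and 31 fell, beside 14.3% and 24.9% of all 154147 regions tested. The members were thus called higher in 7.94% and lower in 24.6%. Some called regions had fewer than 2 summits outside the group where they were high, so they passed the filter through that group and had to differ. They made up 2 of the 10 and 7 of the 31 here, 5 of 15 and 7 of 23 between EPDC and E11.5, and 5 of 27 and 2 of 16 between EPDC and E17.5, beside 24.5% to 37.6% of the calls over all regions, and such regions are described below without a test. Between EPDC and E11.5, 15 were higher and 23 lower (11.9% and 18.3%, beside 13.1% and 26.2% of all regions), and the split turned to 25 higher and 14 lower with quantile normalization (15.1% and 20.1% of all regions) and to 19 and 15 with equal numbers of summits (15.5% and 22.7% of all regions). Between EPDC and E17.5, 27 were higher and 16 lower (21.4% and 12.7%, beside 20.4% and 21.1%). Leaving out the E12.5 EPDC library raised the counts of higher regions to 29 against E11.5 and to 47 against E17.5, and over all regions the share called higher rose too, to 19.2% and 26.7%. With quantile normalization 13 regions rose and 22 fell to E17.5 (15.8% and 20.6% of all regions), with equal numbers of summits 11 and 20 (16.4% and 20.7%), and with rank percentiles 4 and 30 (9.13% and 25%).

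In all, 33 of the 160 regions had a summit in all 9 libraries, beside 24.7% of all regions. A summit in all 3 libraries of E11.5 and none of the other 6 was found at 4 member regions, for E17.5 at 1 and for EPDC at 5, beside 3.75%, 2.98% and 3.23% of all regions. By annotation 79 regions lay in introns, 57 between genes, 10 in UTR exons, 6 in coding exons and 8 in exons of other transcripts.

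**Figure D2:**
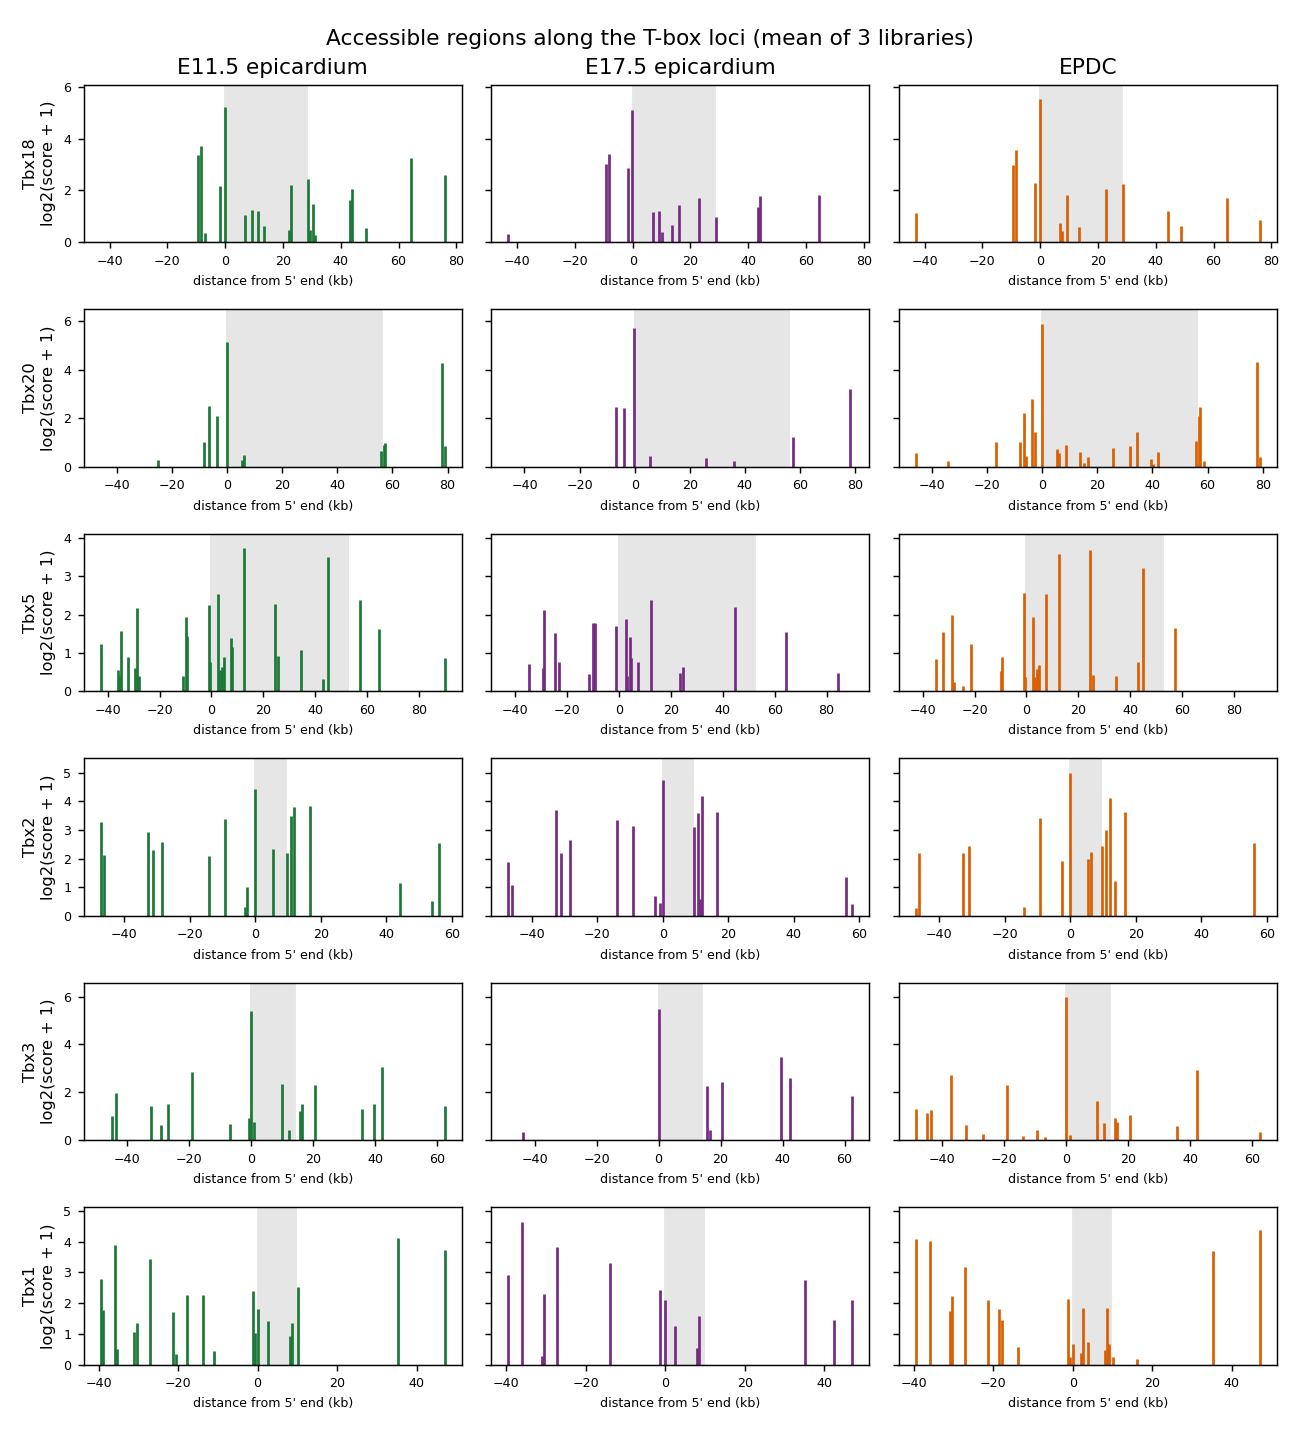
Mean log2(score + 1) of the 3 libraries of each group for every member region, by distance from the gene's 5′ end in kb in the direction of transcription, with the gene body in grey. *Tbx18*, *Tbx20* and *Tbx3* are led by a promoter peak, *Tbx5* by peaks in its introns, and *Tbx20* carries a row of low peaks along its gene body in EPDC.

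*Tbx18* (chr9:87702800-87731260, minus strand) encodes a repressor expressed in epicardial progenitors. Its promoter, chr9:87731107-87731607, was the most accessible region of the locus, with 34.8, 42.6 and 32.8 at E11.5, 31.1, 36.5 and 34.2 at E17.5 and 59.7, 40.4 and 35 in EPDC. The groups overlapped and no comparison was called (limma adjusted p = 0.15 to 0.71). The strongest distal region, 8.26 kb upstream in an exon of *Gm37374*, gave 8.78 to 14.4 in all 9 libraries, again with no call. None of the 18 tested regions rose and 5 fell from E11.5 to E17.5, by up to 2.57 on the log2 scale (27.8% falling, beside 14.3% rising and 24.9% falling over all regions). In EPDC, 4 were lower and none higher than at E11.5 (22.2%, beside 26.2% lower and 13.1% higher). Against E17.5, 1 was higher in EPDC and 1 lower (5.56% each, beside 20.4% and 21.1%). The locus held 2 regions with a summit in every E11.5 library and in no other, which passed the filter through E11.5 and could only fall from it.

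Of the 6 *Tbx18* regions called in any comparison, 5 lay 3′ of the gene and 1 in an intron, and the sequence of the region with the largest fall is given, with 100 bases on each side of its centre (GRCm38, plus strand; capitals in this and the later sequences mark matches to the motifs described at the end, of which it has none).
Tbx18 3′ region, 75.9 kb from the 5′ end, chr9:87655248-87655448: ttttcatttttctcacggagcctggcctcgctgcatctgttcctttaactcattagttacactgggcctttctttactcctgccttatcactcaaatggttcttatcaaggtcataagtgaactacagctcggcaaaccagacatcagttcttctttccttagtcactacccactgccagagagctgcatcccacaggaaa
This intergenic region gave 4.71, 6.15 and 4.15 at E11.5, from 37, 52 and 34 fragments at the summit, and no summit in the 3 E17.5 libraries or in E12.5 EPDC. The E13.5 EPDC libraries gave 0.91 and 1.48. The log2 difference was -2.57 ± 0.32 at E17.5 (limma adjusted p = 0.000253) and -1.82 ± 0.32 in EPDC (limma adjusted p = 0.00183). A region just beyond the 3′ end, 28.8 kb from the 5′ end, gave 4.03 to 4.87 at E11.5, 0, 1.65 and 1.2 at E17.5 and 3.33 to 4.27 in EPDC, so E17.5 was the low group (-1.60 ± 0.34 against E11.5 and 1.40 ± 0.34 for EPDC against E17.5, limma adjusted p = 0.00458 and 0.00804). Another, 43.4 kb from the 5′ end, had a summit in all 6 epicardial libraries, at 1.2 to 2.51, and in none of the EPDC libraries (-1.60 and -1.34, limma adjusted p = 0.000305 and 0.000602). One 30.4 kb from the 5′ end, gave 1.39 to 2.29 at E11.5 and 0 in the other 6 libraries.

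*Tbx20* (chr9:24718138-24774303, minus strand) encodes a factor needed for growth of the heart chambers and valves. Its promoter was more accessible in E17.5 epicardium and in EPDC than at E11.5, and the sequence at that promoter region is given together with a 3′ region that was higher in EPDC and a more distant one that was low at E17.5.
Tbx20 promoter, chr9:24774289-24774489: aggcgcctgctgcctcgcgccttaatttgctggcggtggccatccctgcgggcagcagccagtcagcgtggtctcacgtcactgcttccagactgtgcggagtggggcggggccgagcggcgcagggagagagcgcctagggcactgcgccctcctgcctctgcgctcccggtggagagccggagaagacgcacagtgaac
Tbx20 3′ region, 56.9 kb from the 5′ end, chr9:24717288-24717488: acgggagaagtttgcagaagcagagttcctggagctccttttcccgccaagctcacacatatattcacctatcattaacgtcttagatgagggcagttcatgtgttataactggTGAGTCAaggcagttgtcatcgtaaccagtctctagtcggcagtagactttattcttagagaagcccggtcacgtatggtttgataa
Tbx20 distal region, 78.1 kb from the 5′ end, chr9:24696137-24696337: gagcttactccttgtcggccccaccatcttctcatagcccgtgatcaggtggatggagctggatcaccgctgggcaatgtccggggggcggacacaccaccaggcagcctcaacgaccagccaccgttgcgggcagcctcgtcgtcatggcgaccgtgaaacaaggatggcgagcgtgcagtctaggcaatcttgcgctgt
The promoter gave 32.5, 33.3 and 36.6 at E11.5, 62.1, 47.6 and 43.6 at E17.5 and 73.4, 52.2 and 49.8 in EPDC. All E11.5 libraries lay below the other 6. The rise was 0.56 ± 0.17 to E17.5 (limma adjusted p = 0.0296), a call lost under 9 of 23 alternatives, among them leaving out any E11.5 sample or E17.5 sample 1 or 2 (0.41 to 0.61), and the difference was 0.74 ± 0.17 between EPDC and E11.5 (limma adjusted p = 0.00767). At the distal region, which lies in a UTR exon of the neighbour *Dpy19l2*, scores were 17.3, 18.1 and 19.2 at E11.5, 8.83, 6.95 and 9.23 at E17.5 and 17.4, 18.6 and 21.6 in EPDC. E17.5 stood below the other groups with no overlap, with a difference of -1.05 ± 0.14 from E11.5 (limma adjusted p = 0.000378), and EPDC lay 1.12 ± 0.14 above E17.5 (limma adjusted p = 0.000209).

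Just past the 3′ end of *Tbx20*, adjoining regions 56.9 and 57.4 kb from the 5′ end had their highest scores in EPDC. The first gave 0.854, 0.625 and 1.08 at E11.5, no summit at E17.5 and 2.21, 5.06 and 2.67 in EPDC, from 41, 114 and 209 fragments (EPDC against E17.5 2.05 ± 0.25, limma adjusted p = 0.000186). The other gave 0, 1.37 and 1.5, then 1.64, 0 and 2.46, and in EPDC 3.86, 5.65 and 4.14, 1.60 ± 0.50 above E11.5 (limma adjusted p = 0.0327, lost under 9 of 22 alternatives, among them leaving out any EPDC library, E11.5 sample 1 or 2 or E17.5 sample 1). Its difference between EPDC and E17.5 was not called (1.39, limma adjusted p = 0.0537). In the gene body, an intronic region 34.5 kb from the 5′ end gave 1.64, 1.92 and 1.47 in EPDC and no summit elsewhere. Of the 22 tested regions in the gene's window, 4 were higher and none lower in EPDC than at E11.5, and 4 higher and none lower than at E17.5. That is 18.2% higher in each, beside 13.1% and 20.4% of all regions, of which 26.2% and 21.1% were lower. The regions 56.9 and 34.5 kb from the 5′ end were in both sets, and the latter passed the filter through EPDC and had to differ. From E11.5 to E17.5, 1 rose and 2 fell (4.55% and 9.09%, beside 14.3% and 24.9%).

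A pattern at *Tbx20* noticed after its values were seen sets the EPDC libraries apart from each other. Of its 29 regions, 9 had a summit in both E13.5 EPDC libraries and in none of the other 7, a pattern found at 3.46% of all regions, and 5 of the 9 lay within *Tbx20* and 4 upstream of it. Their scores were low, 0.553 to 3 in E13.5 sample 1 and 0.412 to 2.16 in sample 2, from at least 13 and 43 fragments at the summit. The whole locus held 25 and 29 summits in these libraries, 14 in E12.5 EPDC, 8 to 12 at E11.5 and 5 to 10 at E17.5. E13.5 sample 1 had nearly the depth of the E12.5 library (genome background 4.26 and 4.19 fragments), sample 2 more (10.9). The local background at the *Tbx20* summits had a median of 2.28 to 4.33 times the genome background in every library, beside 1.03 to 1.93 over all summits. Of the cardiomyocyte promoters, 4 of 10 had a summit in each EPDC library, and their summed score was 48.5 at E12.5 and 53.4 and 59.4 at E13.5; the part of other cell types in this pattern was not tested.

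*Tbx5* (chr5:119832668-119885219, plus strand) encodes an activator of atrial and left ventricular genes. Its 3 strongest regions by mean score over the 9 libraries lay in introns, and at the 5′ end the best promoter region, 0.95 kb upstream, gave 2.84 to 5.96 where called and was at 0 in E17.5 sample 2. Promoter peaks made up 4.9% of the locus score at E11.5, 5.8% at E17.5 and 4.99% in EPDC. The sequences of 2 of these intronic regions are given, the strongest and the one that separated all groups. Without the strongest summit the locus still fell to E17.5 (-0.79, limma adjusted p = 0.00106) and EPDC still lay above E17.5 (0.47, limma adjusted p = 0.0051).
Tbx5 intron, 12.51 kb from the 5′ end, chr5:119845078-119845278: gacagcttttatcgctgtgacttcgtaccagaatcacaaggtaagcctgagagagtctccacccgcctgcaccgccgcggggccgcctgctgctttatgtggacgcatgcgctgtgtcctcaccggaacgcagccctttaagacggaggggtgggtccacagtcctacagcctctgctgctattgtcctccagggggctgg
Tbx5 intron, 24.6 kb from the 5′ end, chr5:119857156-119857356: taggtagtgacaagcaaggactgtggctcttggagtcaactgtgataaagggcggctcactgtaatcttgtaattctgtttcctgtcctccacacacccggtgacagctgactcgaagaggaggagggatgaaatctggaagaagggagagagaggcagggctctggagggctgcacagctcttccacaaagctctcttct
The first was the strongest region of the locus and gave 10.1, 16.1 and 10.6 at E11.5, 4.02, 4.05 and 4.69 at E17.5 and 8.11, 12.7 and 12.2 in EPDC. E17.5 did not overlap the other groups, with a difference of -1.31 ± 0.22 from E11.5 (limma adjusted p = 0.00142), and EPDC lay 1.17 ± 0.22 above E17.5 (limma adjusted p = 0.0023). The other gave 4.92, 4.08 and 2.47 at E11.5, 1.64, 0 and 0 at E17.5 and 10.3, 11.2 and 13.9 in EPDC, from 72, 89 and 257 fragments. Here the 3 groups separated completely, in the order E17.5, E11.5, EPDC, with EPDC 3.20 ± 0.39 above E17.5 (limma adjusted p = 0.000172) and 1.43 ± 0.39 above E11.5 (limma adjusted p = 0.017). The latter call was lost under 5 of 22 alternatives, among them leaving out E11.5 sample 3 (1.21) or E13.5 EPDC sample 2 (1.32).

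Among the 27 *Tbx5* regions tested, 6 fell to E17.5 and 1 rose (22.2% and 3.7%, beside 24.9% and 14.3% of all regions). The largest fall was at an intergenic region 57.3 kb from the 5′ end, with 4.14, 4.41 and 4.02 at E11.5, no summit at E17.5 and 3.64, 1.31 and 1.53 in EPDC (-2.37 ± 0.26, limma adjusted p = 0.000139). The one rise was 24.6 kb upstream of the gene, where E17.5 gave 2.32, 1.94 and 1.42 and a single other library, E13.5 EPDC sample 2, gave 0.317. In EPDC 2 regions were higher and 4 lower than at E11.5 (7.41% and 14.8%, beside 13.1% and 26.2% of all regions). Against E17.5, 6 were higher in EPDC and 3 lower (22.2% and 11.1%, beside 20.4% and 21.1%). A region 64.4 kb from the 5′ end had summits of 1.32 to 2.38 in all 6 epicardial libraries and none in EPDC (-1.63 ± 0.19 and -1.53 ± 0.19, limma adjusted p = 0.000193 and 0.000181). An intronic region 7.95 kb from the 5′ end gave 1.76, 0.854 and 1.03 at E11.5 and 0 elsewhere. When whole intervals were counted in place of summits, its values in the E11.5 and EPDC libraries were those of the summit 7.36 kb from the 5′ end, whose interval reached into it, so that alternative does not measure this region by itself.

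*Tbx2* (chr11:85832551-85841948, plus strand) encodes a repressor of the chamber programme. Its promoter was somewhat more open in EPDC than at E11.5, a region 14 kb upstream was open at E17.5 and nearly lost in EPDC, and a region in its gene body had a summit in EPDC alone. The sequences of the last pair follow.
Tbx2 upstream region, in an intron of Bcas3, chr11:85818424-85818624: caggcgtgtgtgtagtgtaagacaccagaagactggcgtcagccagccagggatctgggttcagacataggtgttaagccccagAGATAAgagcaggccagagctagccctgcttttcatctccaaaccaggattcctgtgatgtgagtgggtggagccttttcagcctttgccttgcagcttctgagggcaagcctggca
Tbx2 intron, 6.45 kb from the 5′ end, chr11:85838902-85839102: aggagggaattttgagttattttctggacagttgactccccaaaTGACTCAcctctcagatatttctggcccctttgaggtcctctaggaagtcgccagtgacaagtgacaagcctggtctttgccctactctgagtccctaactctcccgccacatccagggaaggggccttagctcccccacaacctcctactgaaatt
The promoter gave 20.4, 20.9 and 20.8 at E11.5, 26.6, 23 and 27.8 at E17.5 and 26.7, 34.9 and 31.7 in EPDC, with E11.5 below all others. EPDC lay 0.56 ± 0.12 above E11.5 (limma adjusted p = 0.00562) and E17.5 0.30 ± 0.12 above it (limma adjusted p = 0.0743). The upstream region gave 2.57, 3.22 and 3.84 at E11.5, 7.95, 10.6 and 8.88 at E17.5, and 0, 0 and 0.697 in EPDC. The 3 groups separated, with E17.5 1.27 ± 0.25 above E11.5 (limma adjusted p = 0.00349) and EPDC at -3.08 ± 0.25 from E17.5 (limma adjusted p = 1.92e-05). The intronic region gave 2.35, 4.28 and 4.47 in EPDC, from 47, 98 and 267 fragments, and no summit in the other 6 libraries.

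A coding exon of *Tbx2*, 5.33 kb from the 5′ end, changed from E11.5 to E17.5 in the opposite direction to the upstream region. It gave 4.72, 3.17 and 4.25 at E11.5, no summit at E17.5 and 2.89, 2.85 and 3.16 in EPDC (-2.32 ± 0.18 to E17.5, limma adjusted p = 2.3e-05). A region 47 kb upstream, in an intron of *Bcas3*, gave 8.15, 9.65 and 8.58 at E11.5, 3.76, 4.2 and 0 at E17.5 and 0.651, 0 and 0 in EPDC. E11.5 lay above the other 6 libraries and EPDC differed from it by -3.05 ± 0.57 (limma adjusted p = 0.00263), while E17.5 and EPDC overlapped and were not called apart (limma adjusted p = 0.093). The strongest distal region, 12 kb from the 5′ end and beyond the gene, overlapped between groups at 10.1 to 22 and was not called. Of the 18 tested regions 3 rose and 3 fell to E17.5 (16.7% each, beside 14.3% and 24.9% of all regions). In EPDC 2 were higher and 5 lower than at E11.5 (11.1% and 27.8%, beside 13.1% and 26.2%). Against E17.5, 3 were higher in EPDC and 5 lower (16.7% and 27.8%, beside 20.4% and 21.1%).

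*Tbx3* (chr5:119670669-119684724, plus strand) encodes a repressor that acts within the sinus node and conduction system. A strong promoter was joined at E11.5 by many weaker regions, of which few were called at E17.5. The locus held 18 or 19 summits at E11.5, 6 to 9 at E17.5 and 12 to 22 in EPDC. Sequences are given for the regions that set E17.5 and EPDC apart from the rest.
Tbx3 3′ region, 39.6 kb from the 5′ end, chr5:119710129-119710329: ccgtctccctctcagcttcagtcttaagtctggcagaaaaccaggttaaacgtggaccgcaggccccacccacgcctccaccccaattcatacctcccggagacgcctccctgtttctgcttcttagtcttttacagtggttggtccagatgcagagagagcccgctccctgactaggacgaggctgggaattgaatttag
Tbx3 upstream region, in an exon of Tbx3os1, chr5:119633293-119633493: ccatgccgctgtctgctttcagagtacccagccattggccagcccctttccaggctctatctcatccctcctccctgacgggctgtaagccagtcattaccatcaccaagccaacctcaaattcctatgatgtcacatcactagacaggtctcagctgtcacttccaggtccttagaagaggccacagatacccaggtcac
Tbx3 upstream region, in an intron of Tbx3os1, chr5:119651619-119651819: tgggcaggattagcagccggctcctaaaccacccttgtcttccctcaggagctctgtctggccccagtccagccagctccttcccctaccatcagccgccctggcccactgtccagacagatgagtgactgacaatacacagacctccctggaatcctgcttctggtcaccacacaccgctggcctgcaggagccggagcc
The promoter gave 50.5, 35.1 and 39.2 at E11.5, 46.2, 38.5 and 47 at E17.5 and 60.9, 64.5 and 60.6 in EPDC. The epicardial groups overlapped and EPDC lay above both, by 0.58 ± 0.13 and 0.49 ± 0.13 (limma adjusted p = 0.00802 and 0.0159). The difference from E17.5 lost its call under 5 of 22 alternatives, among them leaving out E17.5 sample 2 (0.40) or E13.5 EPDC sample 1 (0.47). The 3′ region gave 2.09, 1.47 and 1.92 at E11.5, 6.48, 8.84 and 15.5 at E17.5 and no summit in EPDC. It was 1.92 ± 0.28 above E11.5 at E17.5 (limma adjusted p = 0.00061) and EPDC differed from E17.5 by -3.42 ± 0.28 (limma adjusted p = 1.88e-05), the largest difference of any member region in that comparison. The upstream exon region, 37.3 kb before the gene, gave 2.58, 8.28 and 6 in EPDC and no summit in the 6 epicardial libraries. The upstream intron region, 18.9 kb before the gene, gave 4.58, 5.83 and 8.28 at E11.5, no summit at E17.5 and 5.49, 3.59 and 2.89 in EPDC (-2.82 ± 0.26 to E17.5, limma adjusted p = 4.83e-05).

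Of the 19 tested *Tbx3* regions, 8 fell and 1 rose to E17.5, which is 42.1% falling beside the 24.9% given above for all regions. In EPDC 3 were higher and 6 lower than at E11.5 (15.8% and 31.6%, beside 13.1% and 26.2% of all regions). Against E17.5, 7 were higher in EPDC and 3 lower (36.8% and 15.8%, beside 20.4% and 21.1%). The strongest distal region, 42.4 kb from the 5′ end and 2.8 kb from the E17.5 region, did not follow it and gave 4.07 to 8.95 in all 9 libraries with no call. Since *Tbx3os1* is transcribed across the upstream regions on the other strand, a peak there may belong to either gene.

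*Tbx1* (chr16:18580979-18590671, minus strand) encodes a factor of the pharyngeal arches and outflow tract. Its own promoter was weak, at 2.11, 2.8 and 2.51 at E11.5, 0, 5.88 and 3.95 at E17.5 and 1.04, 0 and 0.722 in EPDC, and no comparison was called. The locus score rested on regions in and around the neighbours. The sequence of the region with the widest range follows, with one 3′ of *Tbx1* that was seen mainly at E11.5.
Tbx1 3′ region, in an intron of Gnb1l, chr16:18543561-18543761: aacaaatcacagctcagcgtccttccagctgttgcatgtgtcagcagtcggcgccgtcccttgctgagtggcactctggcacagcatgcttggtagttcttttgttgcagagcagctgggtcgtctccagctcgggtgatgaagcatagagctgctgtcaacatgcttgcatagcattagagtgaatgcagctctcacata
Tbx1 3′ region, 10.1 kb from the 5′ end, chr16:18580474-18580674: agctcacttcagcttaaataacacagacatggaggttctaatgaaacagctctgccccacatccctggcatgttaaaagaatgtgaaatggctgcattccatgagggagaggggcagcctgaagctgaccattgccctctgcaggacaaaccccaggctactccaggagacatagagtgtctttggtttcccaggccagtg
The *Gnb1l* intron gave 11.7, 11.47 and 13.7 at E11.5, 4.09, 3.39 and 2.29 at E17.5 and 16.2, 21 and 22.1 in EPDC, with no overlap between groups (-1.66 ± 0.20 to E17.5 and 2.30 ± 0.20 for EPDC against E17.5, limma adjusted p = 0.000201 and 2.46e-05). The 3′ region gave 5.11, 4.26 and 4.69 at E11.5, no summit at E17.5 and 0, 0 and 0.597 in EPDC. A region 13.9 kb upstream was higher at E17.5 and lower in EPDC than at E11.5, with 3.68, 2.88 and 4.74 at E11.5, 7.36, 10.4 and 8.71 at E17.5 and 0, 0.995 and 0.516 in EPDC (1.05 ± 0.28 and -1.70 ± 0.28, limma adjusted p = 0.0161 and 0.00134; the first was lost under 6 of 23 alternatives, among them leaving out E11.5 sample 2 or E17.5 sample 2, at 0.91 and 0.94). An exon of *4930588K23Rik* 18.6 kb upstream gave 2.78, 2.83 and 1.77 in EPDC and 0 elsewhere, and a *Gnb1l* intron 42.4 kb from the 5′ end gave 1.28, 2.57 and 1.43 at E17.5 and 0 elsewhere. The strongest region, in an intron of *Sept5*, rose from 14.6, 16.2 and 10.7 at E11.5 to 29.7, 21.6 and 20.8 at E17.5 (0.76 ± 0.19, limma adjusted p = 0.0106) and gave 14.3, 14.5 and 16.8 in EPDC. Of the 22 tested regions 4 rose and 7 fell to E17.5 (18.2% and 31.8%, beside 14.3% and 24.9% of all regions). In EPDC 4 were higher and 4 lower than at E11.5 (18.2% each, beside 13.1% and 26.2%). Against E17.5, 6 were higher in EPDC and 4 lower (27.3% and 18.2%, beside 20.4% and 21.1%).

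**Figure D3:**
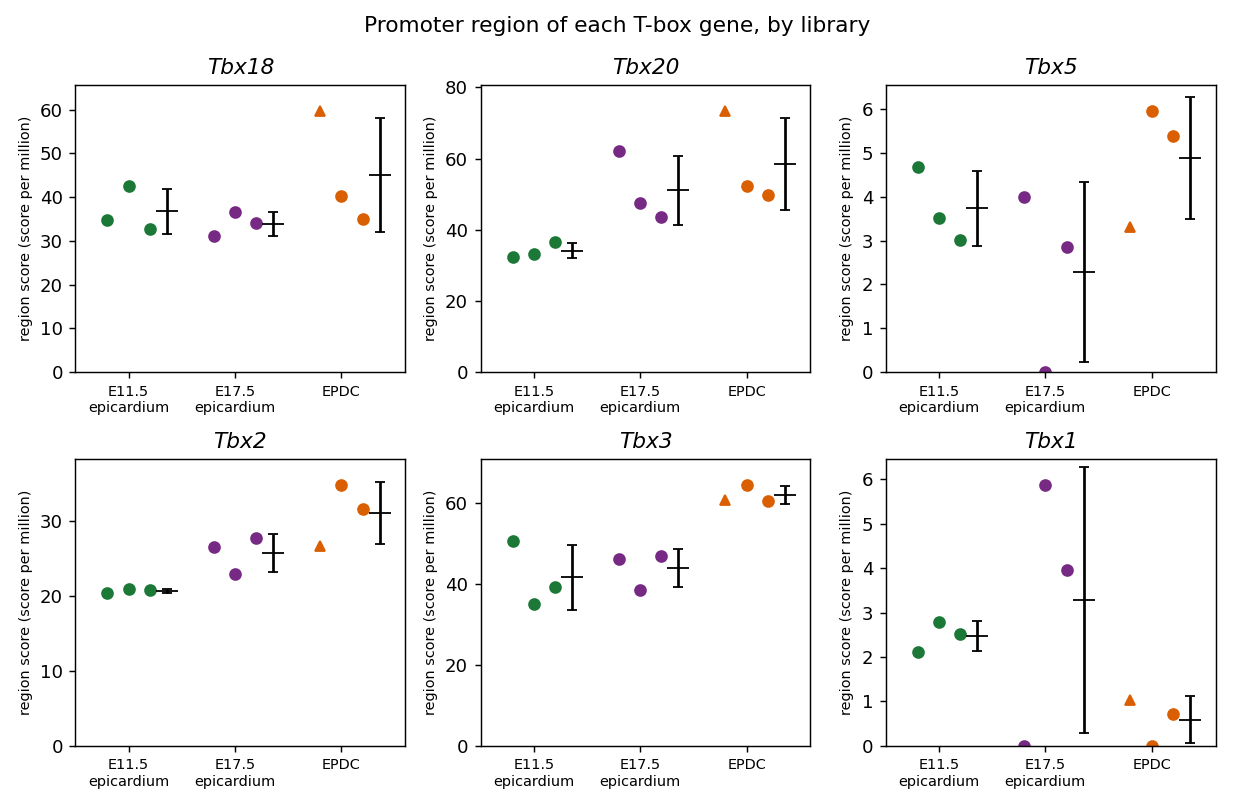
Score of the best promoter region (within 1 kb of the 5′ end) of each gene in the 9 libraries, on linear axes from 0 that differ between panels, with circles for libraries, triangles for E12.5 EPDC and bars for the mean ± SD of 3. The *Tbx20* promoter is lowest at E11.5 (32.5 to 36.6) and the *Tbx3* promoter highest in EPDC (60.6 to 64.5), while the *Tbx5* and *Tbx1* promoters stay below 6.

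**Figure D4:**
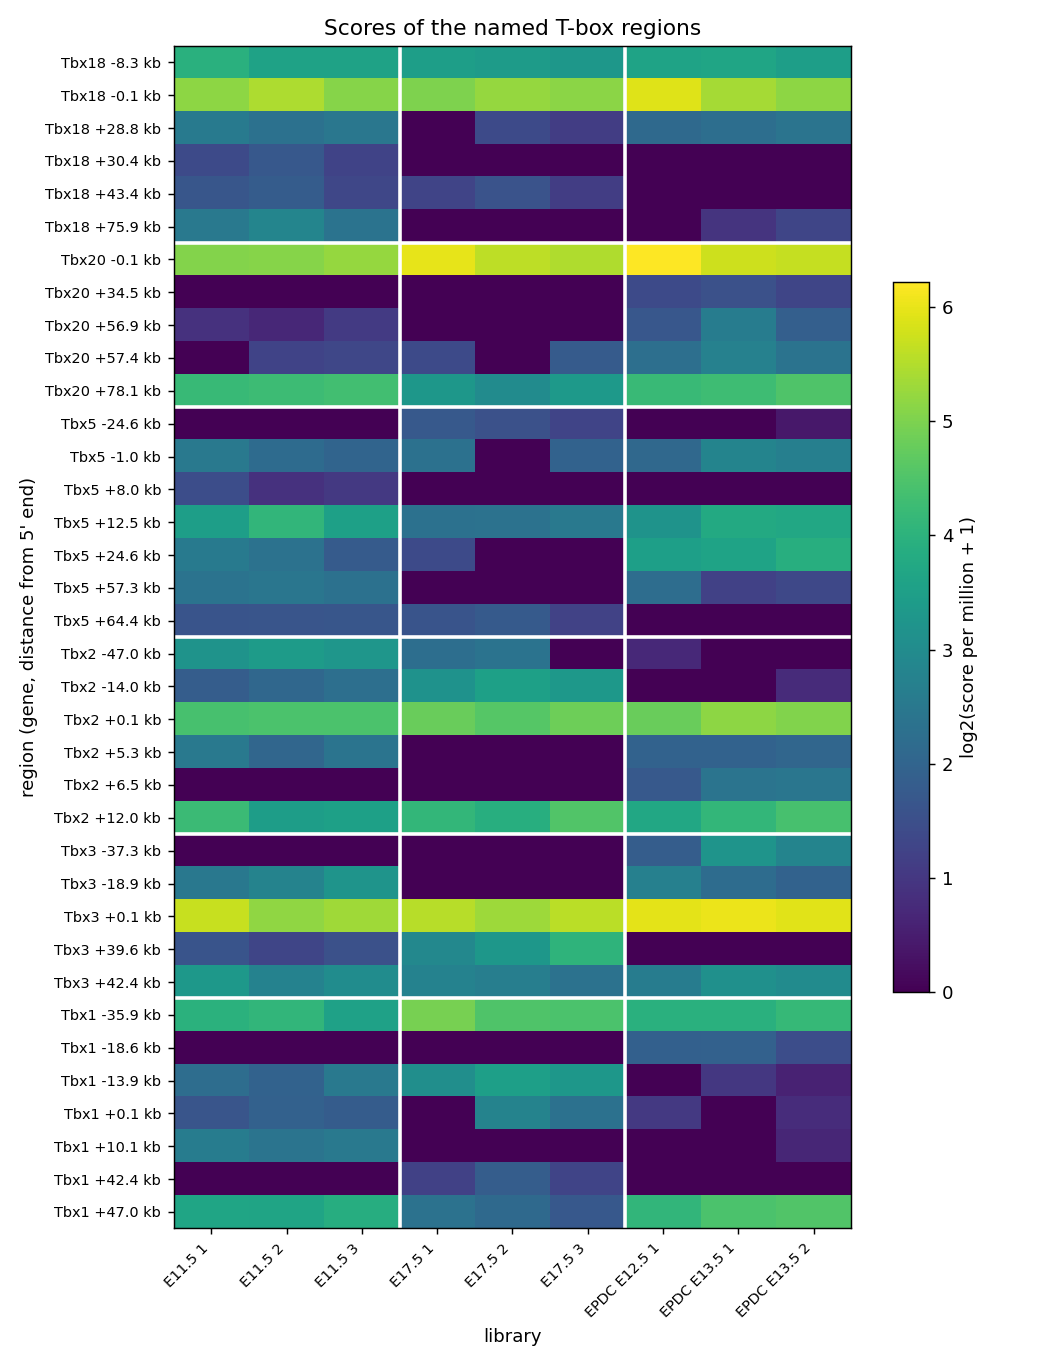
log2(score + 1) of the regions described for each gene (rows, by distance from the 5′ end in kb) in the 9 libraries (columns), with white lines between genes and groups and the darkest colour for no summit. Group differences stand out at *Tbx3* +39.6 kb (6.48 to 15.5 at E17.5, none in EPDC) and *Tbx5* +24.6 kb (10.3 to 13.9 in EPDC).

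Motif matches were counted on both strands of the whole regions. The T-box element AGGTGTGA occurred in 4 of 160 member regions (2.5%) and in 1.97% of all regions. Of the 4, 2 lay in *Tbx18* introns and 1 upstream of *Tbx5*, each with a summit in 1 or 2 libraries, and the other was the *Tbx3* region 39.6 kb from the 5′ end, where the match lies outside the printed bases. The GATA element AGATAA occurred in 35 member regions (21.9%, beside 29.8% of all regions), the TEAD element ACATTCC in 12 (7.5%, beside 12%) and the AP-1 element TGANTCA in 22 (13.8%, beside 22.8%). *Tbx20* had the most GATA matches for its size (11 of 29 regions), *Tbx18* the most TEAD matches (5 of 24) and *Tbx3* the most AP-1 matches (6 of 23). These letter matches describe the sequence and are not evidence of binding.

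Other T-box genes were taken as a list of 11, all of which had a testable locus. Between E11.5 and E17.5, 3 rose (*Tbx6*, *Tbx10* and *Mga*) and 2 fell (*T* and *Tbr1*), with a list median of -0.13, beside 30.8% rising and 16.8% falling and a median of 0.12 among all loci. With fragments over genome background the medians were 0.18 for the list and 0.37 for all loci. In EPDC none was higher and 3 lower than at E11.5 (*Tbx19*, *Tbx22* and *Eomes*), beside 13.7% and 23.7% of all loci, and 1 was higher and 4 lower than at E17.5, beside 16.6% and 37.1%. In lists of this size these counts are near the shares over all loci. *Mga*, which encodes a broadly expressed MAX partner with a T-box domain, had a promoter called in every library and a locus score that went from 125.5 ± 9.2 in the E11.5 libraries to 178.5 ± 20.7 in those of E17.5 (SD, n = 3). The locus of *Tbx22*, a craniofacial gene, was nearly without peaks, at 4.01 ± 0.57, 2.35 ± 1.2 and 1.25 ± 0.27 in the 3 groups.

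Loci of 10 genes known as T-box targets in the heart were lower in EPDC than at E11.5 in 9 cases, with no rise and a median of -0.55, beside a median of -0.05 and 23.7% lower among all loci. The count was 4 of 10 with log2 fold enrichment or rank percentiles, where 7.37% and 16.9% of all loci were lower, and 2 with the number of summits, where 8.25% were. Cardiomyocyte markers had a lower summed score in EPDC, 48.5 to 59.4 beside 62.4 to 67.5 at E11.5, with 4 and 6 to 8 of 10 promoters called. They did not move alike. *Myh7* and *Myl7* were at 0 in EPDC and *Tnnt2* went from 15.7 to 17.6 at E11.5 to 11.4 to 13.1. The strong promoters of *Actn2* (24.2 to 26.3 and 23 to 25.8) and *Ryr2* (11.7 to 18.2 and 11.3 to 21.3) overlapped between these groups. The part of cardiomyocytes in the target loci was not tested. *Nppb*, a natriuretic peptide gene, fell from 71.8 ± 0.73 to 40.3 ± 4.5 (-0.82, limma adjusted p = 0.000211), and *Hcn4*, the pacemaker channel gene, from 98.2 ± 7.8 to 54 ± 5.75 (-0.85, limma adjusted p = 0.000136). *Gja1*, a gap junction gene, fell from 104.7 ± 6.3 to 67.8 ± 6.2, and *Fgf8* was the exception at 117.4 ± 6.91 and 119.5 ± 5.86. From E11.5 to E17.5, 4 of the 10 fell (*Gja5*, *Hcn4*, *Bmp10* and *Fgf10*) and *Fgf8* rose by 0.63, beside 16.8% falling and 30.8% rising among all loci, with a list median of -0.19 beside 0.12 over all loci. With fragments over genome background these were 0.07 and 0.37. Between EPDC and E17.5, 1 was higher (*Fgf10*) and 4 lower, with a median of -0.22, beside 16.6% and 37.1% of all loci. *Nppa* and *Nppb* are neighbours and share most of their window.

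The pattern of each locus over the 9 libraries was compared with all loci of above-median score. The 2 most alike were *Agpat4* and *Fam19a3* for *Tbx18* (Pearson r = 0.93 and 0.87), *A630089N07Rik* and *Tle6* for *Tbx20* (0.99 and 0.99), *Ptprn2* and *Pard3b* for *Tbx5* (0.99 and 0.98), *Ttll9* and *Ranbp9* for *Tbx2* (0.95 and 0.94), *Usp10* and *Tmc7* for *Tbx3* (0.97 and 0.92) and *Uvrag* and *Lta4h* for *Tbx1* (0.97 and 0.96). These are descriptions over libraries that fall into 3 groups.

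The 50 kb limit cut through stretches with few peaks at *Tbx20* and with stronger ones at *Tbx2* and *Tbx3*. The outermost region inside the limit of *Tbx18* lay 47.5 kb from the gene and had mean scores of 5.01, 0 and 0.797 in E11.5, E17.5 and EPDC, and the first outside lay at 52.9 kb with 0, 0.673 and 0. At *Tbx2* the region just outside, 53.3 kb from the gene, had 7.43, 7.52 and 12.6, and at *Tbx3* the one at 56.6 kb had 9.35, 7.98 and 7.3. At *Tbx1* the outermost inside, 39.4 kb from the gene, had 5.93, 6.52 and 15.9. Extending the limit to 100 kb would take in 240 regions in place of 160.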

How the data were processed

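Bulk ATAC-seq had been made from sorted cells of E11.5 and E17.5 epicardium and of EPDC. The authors aligned the reads to mm10 and called peaks in each library at a q-value of 0.01 (MACS2 2.2.9.1 in the submitters' processing notes). The deposited lists give each summit a fold enrichment over local background, a ratio, and the −log10 p and −log10 q computed by the authors' peak caller, with no normalization between libraries. The summit offset was used for position.

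From these, −log10 p was scaled to a sum of 1000000 per library. Windows reached 250 bp to either side of a summit, and of overlapping windows the one of highest score was kept, which follows the methods of the study. Locus scores summed all summits of a gene and 50 kb on each side. Genes came from GENCODE release M21 and sequence from GRCm38.p6, the assembly called mm10. Regions with a summit in at least 2 libraries, and 19861 loci, were tested on log2(score + 1) with limma 3.58.1 (R 4.3.3; moderated test with a trend, 3 groups in 1 fit, Benjamini-Hochberg adjustment over all regions or loci). Fragment counts at summits, and the background there, were obtained by solving fold and −log10 p together. Depth ranged from a genome background of 2.07 to 10.9 fragments. Scripts were tested on simulated data. The precision of each mean rests on 3 libraries.

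Samples were grouped by their labels. Same-numbered samples of E11.5 and E17.5 did not deviate together (correlations 0.019, 0.047 and -0.032), so no pairing was used. Described regions were, for each gene, the best promoter region, the best region beyond 1 kb, the largest called rise and fall in each comparison, the best region restricted to 1 group, and those next to the 50 kb limit. The genes, lists and comparisons were chosen with earlier results of these data known. Alternatives were other scales and normalizations, a stricter −log10 q, equal summit numbers, overlap of intervals, other filters, no trend, 2 groups only, leaving out each library, and a block on the replicate number.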

Additional observations from a re-analysis of the deposited data

How the results depend on the processing

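The number of libraries, 3 a group, limits the precision, and a region without a summit may lie below the threshold of a shallow library. Among member regions, the 10 that rose to E17.5 became 6 with log2 fold enrichment and 4 with rank percentiles (9.85% and 9.13% of all regions rose there, beside 14.3%), and the 31 that fell became 20 with equal numbers of summits (20.7%, beside 24.9%). Against E11.5, the 15 regions higher in EPDC became 9 with log2 fold enrichment and 25 with quantile normalization (11.8% and 15.1% of all regions, beside 13.1%), and the 23 lower became 15 with equal numbers of summits, 13 with log2 fold enrichment and 14 with quantile normalization (22.7%, 15.3% and 20.1%, beside 26.2%). Against E17.5, the 16 lower regions became 10 with log2 fold enrichment (14.7% of all regions, beside 21.1%). Leaving out 1 library gave 8 to 12 regions rising and 28 to 32 falling to E17.5, 11 to 29 higher and 19 to 26 lower in EPDC than at E11.5, and 25 to 47 higher and 14 to 17 lower than at E17.5, where the highest counts of higher regions came without the E12.5 EPDC library.

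For the 6 loci, the 1 call at E17.5 became 2 with rank percentiles and with fragments over genome background and 4 without the strongest summit, and 1 to 2 with a library left out. Of all loci, 30.8% rose and 16.8% fell with the score. These shares were 1.43% and 14.4% with rank percentiles, 43.6% and 9.97% with fragments and 21.3% and 16.7% without the strongest summit. The 1 call in EPDC against E11.5 became 2 with no trend, with fragments over genome background and without the strongest summit, and stayed at 1 with each library left out. Of all loci, 13.7% were higher and 23.7% lower with the score. The shares were 11.9% and 21.9% with no trend, 4.95% and 20.2% with fragments and 8.25% and 29.3% without the strongest summit. The 3 calls against E17.5 became 1 with rank percentiles, 4 with quantile normalization, without extreme summits and without the strongest summit, and 2 to 3 with a library left out. Of all loci, 16.6% were higher and 37.1% lower with the score, and 11.4% and 12.8% with rank percentiles. The shares were 19.5% and 25.6% with quantile normalization, 20% and 23.8% without extreme summits and 14.1% and 38.2% without the strongest summit. Over 2813 alternative values of single regions and loci, the sign changed in 77 with no call on either side and in 2 with a call. The *Tbx20* locus at E17.5 gave -0.55, a call, without its strongest summit against an uncalled 0.12, and the cause was not tested. The *Tbx5* region 7.95 kb from the 5′ end gave 1.13 for EPDC against E11.5 when interval overlap was counted, against -1.13, and the first is the difference of the neighbouring summit 7.36 kb from the 5′ end, whose interval that alternative counts. With the replicate block, 10 regions rose and 30 fell to E17.5 and 1 locus was called, beside 10, 31 and 1. The scale on fragments, the sum without extreme summits, the loci without their strongest summit and *Tbx2* without the *Tbx4* side were chosen after seeing the data. Within 1 kb of any transcript start lay 20 regions, beside 10 for the 5′ end alone.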
